A study of Mus musculus with 4 samples.

Results

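The genes described here encode the proteins of the cytosolic ribosome, the particle that translates messenger RNA into protein. They were taken by name, as gene symbols that start with Rpl or Rps followed by a digit, or are Rplp0, Rplp1 or Rplp2. This rule reads only names, but it was set with earlier results of these data known. Ribosomal S6 kinase genes, symbols marked as pseudogenes and Rps19bp1 were left out. This gave 48 genes of the 18193 that have a probe set with a single gene symbol, each represented by its probe set with the highest mean signal. By role these were 20 genes of the large subunit, 20 of the small subunit, 2 of the stalk of the large subunit (Rplp0 and Rplp2) and 6 paralogues, which are related copies of a standard gene. Rplp1 had no probe set of its own with a single symbol.

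Expression was measured on 4 Affymetrix Mouse Genome 430 2.0 arrays, each a set of short DNA probes read as 1 brightness value (signal) per probe set. The cells were naive CD4 T cells sorted from mice on the 2D2 transgenic background, whose T cell receptor transgene recognises a myelin peptide. In the wildtype group (2 arrays) the cells carried miR-146a, a microRNA that restrains inflammatory signalling. In the miR-146a-deficient group (2 arrays), called deficient below, the microRNA was missing, and the labels do not give the construction of the allele. Both groups carried the 2D2 transgene and were stimulated for 3 days with plate-bound anti-CD3 at 5 µg/ml and with anti-CD28 at 1 µg/ml, antibodies that replace antigen and costimulation. The labels differ on whether anti-CD28 was plate-bound or soluble. The labels name the arrays of a group biological replicates without saying whether these are separate mice or cultures, so p-values measure the spread between these arrays only. Nor do they give the animals' age or sex. Values in parentheses after a mean are SDs with n = 2, and differences are log2(signal + 14.7), deficient minus wildtype, with the standard error (SE) of the fit.

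A cytosolic ribosome holds 1 copy of nearly every ribosomal protein, so cells make these proteins in matched amounts and take up spare ones for degradation. Their messenger RNAs are among the most abundant in a growing cell. Most begin with a C followed by a run of pyrimidines, the terminal oligopyrimidine (TOP) motif, through which the kinase mTOR and the RNA-binding protein Larp1 set their translation as a group. T cells enlarge and make many new ribosomes in the days after stimulation, before and while they divide. In a bulk sample, fewer cells of a type and less RNA per cell cannot be told apart.

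The start of the transcript is where the genes resemble each other. RefSeq promoters of the assembly GRCm38.p6 were matched by symbol for 42 of the 48 genes, and these lie on 15 chromosomes. The pyrimidine run was searched on the transcribed strand as a C followed by at least 5 bases that are each C or T, with its first base within 10 bases of the annotated start. It was present in 24 of 42 ribosomal protein genes (57.1%). The same search found it in 23.9% of the 10373 tested genes with a promoter, in 21.9% of all 27025 genes of the table and in 23.9% of 67 genes for proteins of the mitochondrial ribosome. Annotated starts can be several bases off, so a missing run says only that these letters are not in this window. The 8 windows below show the run in the genes that the results turn on, from 40 bases before to 30 bases from the annotated start on, with the run in capitals where the search found it. Rps18, Rps6, Rpl38 and Rplp2 are typical cases. Rps27, Rpl39 and Rps25 are the standard genes with the largest differences between genotypes, and Rpl22l1 is the paralogue with the largest difference between the wildtype arrays among bright genes. No run was found in Rps25.
Rps18: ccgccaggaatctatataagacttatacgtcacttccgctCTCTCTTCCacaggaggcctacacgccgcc
Rps6: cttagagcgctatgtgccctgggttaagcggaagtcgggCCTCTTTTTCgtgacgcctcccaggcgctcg
Rpl38: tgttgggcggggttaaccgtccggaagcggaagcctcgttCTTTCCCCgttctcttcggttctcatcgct
Rplp2: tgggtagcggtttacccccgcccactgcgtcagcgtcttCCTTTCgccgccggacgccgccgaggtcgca
Rps27: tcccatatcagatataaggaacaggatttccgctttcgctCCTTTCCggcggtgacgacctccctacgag
Rpl39: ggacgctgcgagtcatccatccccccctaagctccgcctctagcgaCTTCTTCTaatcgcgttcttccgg
Rpl22l1: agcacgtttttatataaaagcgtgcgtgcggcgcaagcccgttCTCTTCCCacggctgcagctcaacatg
Rps25: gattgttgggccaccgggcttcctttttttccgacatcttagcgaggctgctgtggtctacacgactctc
The windows are at chr17:33955636-33955705 (minus strand) for Rps18, chr4:86857338-86857407 (minus strand) for Rps6, chr11:114668540-114668609 (plus strand) for Rpl38 and chr7:141447611-141447680 (plus strand) for Rplp2. Those of the other four are chr3:90213619-90213688 (minus strand) for Rps27, chrX:37085193-37085262 (minus strand) for Rpl39, chr3:28805468-28805537 (plus strand) for Rpl22l1 and chr9:44407674-44407743 (plus strand) for Rps25. Each holds the last 40 bases before the gene and the first 30 bases from the annotated start on.

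Further motifs were searched on both strands of the 300 bases from 250 before the start to 50 from it on. The letters CCGGAA, the core recognised by ETS factors such as GABP, were found in 27 of 42 ribosomal protein promoters (64.3%) and in 29.8% of tested genes. Mitochondrial ribosomal protein genes were close, with 56.7%, and all 27025 genes of the table stood at 16.7%. TATAA, the core of the TATA element, was found in 14 of 42 (33.3%) against 17.1% of tested genes and 28.0% of all genes. AAGATGGC, the core of a YY1 site, was found in 4 (9.52%) against 5.03% of tested genes and 3.19% of all genes. In mitochondrial ribosomal protein genes its share was 17.9%. The GC box GGGCGG was found in 24 (57.1%), below the 65.9% of tested genes and above the 38.2% of all genes. None of these letter strings contains another. They are matches of letters, given as a description, and the binding of no factor was measured.

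**Figure D1:**
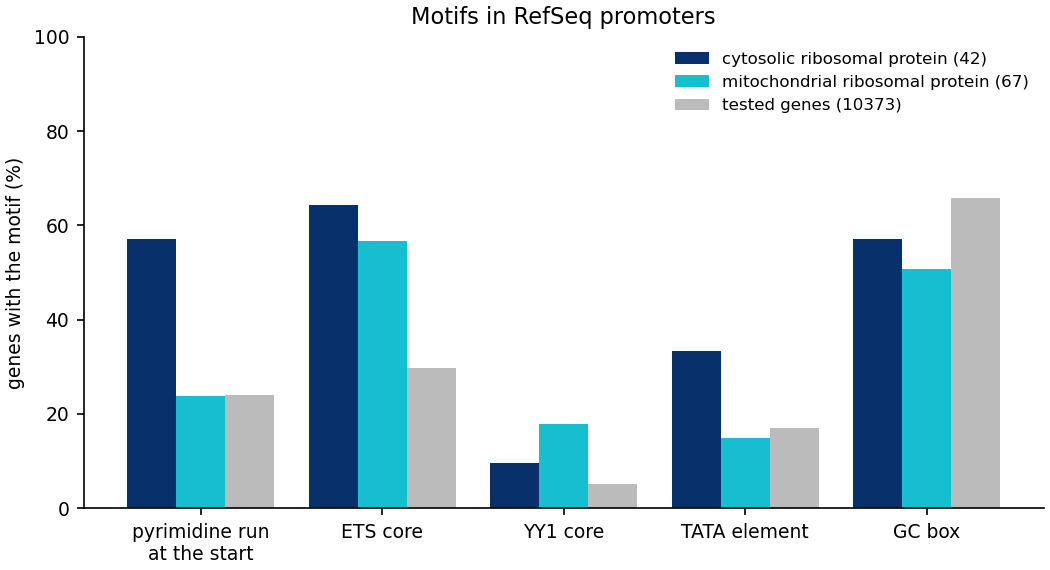
Share of genes (percent, y axis) whose RefSeq promoter holds each motif (x axis), for cytosolic ribosomal protein genes (42), mitochondrial ribosomal protein genes (67) and tested genes (10373). The pyrimidine run stands at 57.1% in the first group and at 23.9% in both others, and the ETS core at 64.3% and 56.7% in the ribosomal groups.

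The comparison of genotypes asks whether the ribosomal protein transcripts differ in stimulated T cells that lack miR-146a. No ribosomal protein gene passed the test between genotypes, and the largest differences were on dim probe sets. Of the 48 genes, 46 were bright enough to be tested. Rpl3l and Rps16 were not, since the single-symbol probe sets they were read from lay below the filter. With limma's moderated test, adjusted over all 12819 tested genes, 0 of 46 passed an adjusted p of 0.05, against a background of 0.179% (23 of 12819 genes; 0.172% higher and 0.0078% lower in the deficient arrays). At an unadjusted p under 0.05 there were 2 of 46 genes, Rpl39 and Rps27, which is 4.35% beside 5.25% of all tested genes. The genotypes had separate ranges in 8 of 46 genes, 4 higher and 4 lower in the deficient arrays. Over all tested genes 33.6% did not overlap, 15.9% higher and 17.7% lower.

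The median difference of the 46 genes was 0.050, with quartiles at 0.012 and 0.083, beside a median of -0.011 and quartiles of -0.14 and 0.10 over all tested genes. By sign 36 were higher and 10 lower in the deficient arrays, but without wildtype replicate 1 only 10 were higher and the median turned to -0.067. Without wildtype replicate 2 the median was 0.14, without deficient replicate 1 it was 0.0049 and without deficient replicate 2 it was 0.084. Quantile normalization brought it to 0.0081, with 27 of 46 higher, and median centring of the arrays to 0.13, with 43 higher, where the median of all tested genes moved to 0.073. A p that misses the threshold does not show equality, so the 95% intervals of the differences are given as well. For 41 of 46 genes (89.1%) the whole interval lay between -0.5 and 0.5, that is under a 1.41-fold change either way. Among all tested genes this held for 48.9%, but among the mitochondrial ribosomal protein genes for 96.1% and among other genes with a mean signal of at least 20000 for 97.8%, so narrow intervals were not particular to the cytosolic ribosomal protein genes.

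**Figure D2:**
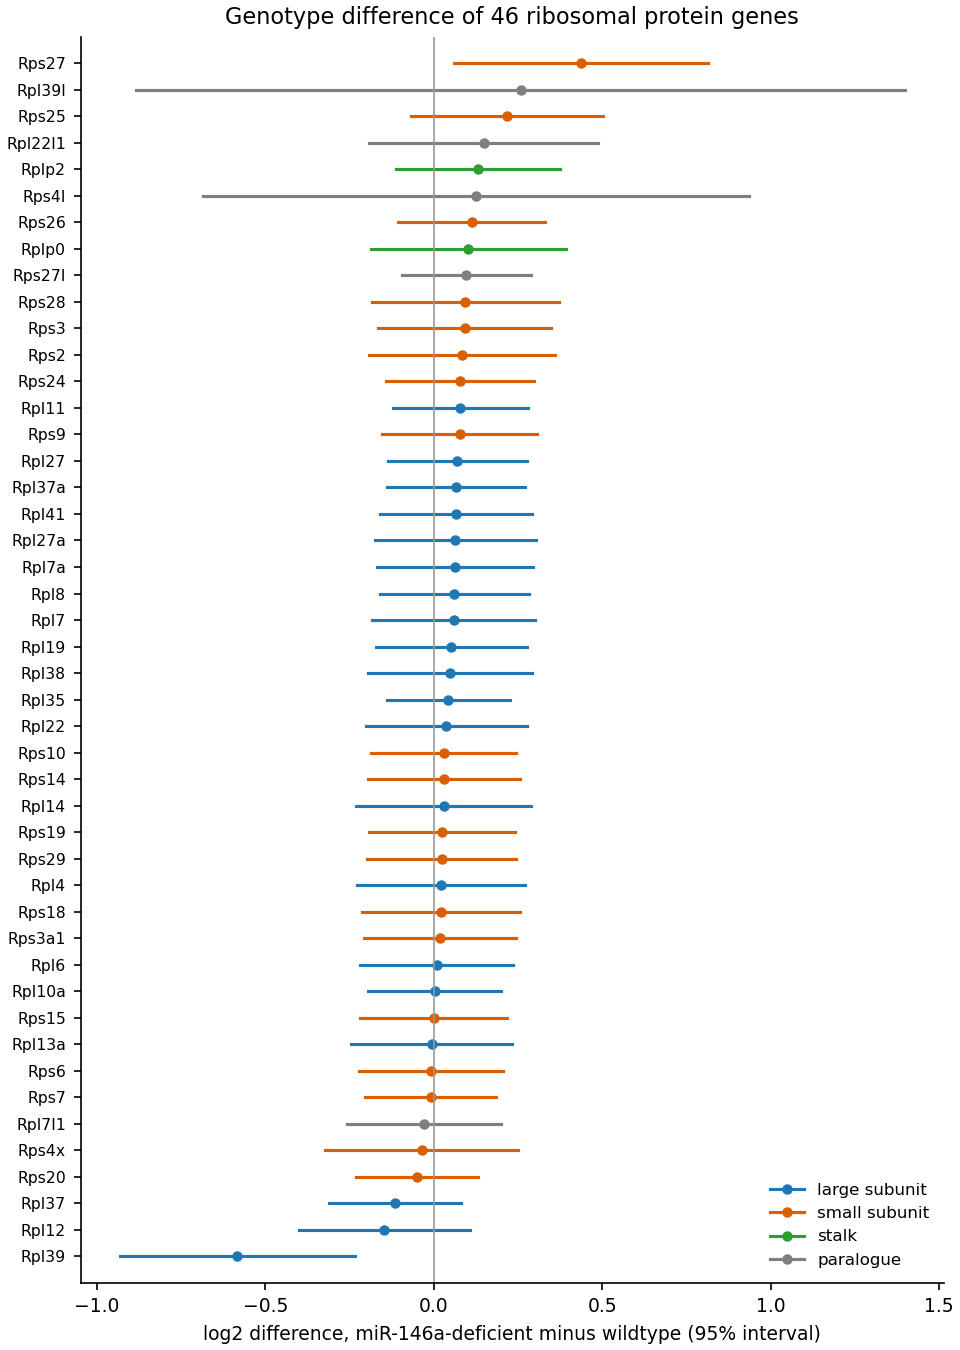
Log2 difference between genotypes (x axis, deficient minus wildtype) for the 46 tested ribosomal protein genes, ordered by value, with points for the estimate and bars for the 95% interval of limma's fit, coloured by role. The estimates of 41 genes have intervals inside -0.5 to 0.5, and Rpl39 and Rps27 lie outermost at -0.58 and 0.44.

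The stalk is the flexible arm of the large subunit that recruits the elongation factors. Its base is Rplp0, which carries pairs of the small acidic proteins made from Rplp1 and Rplp2. Rplp0 read 34225 and 44377 in wildtype cells, against 44324 and 39524 in deficient cells. Wildtype replicate 1 was the lowest array and the genotypes overlapped, with a difference of 0.10 ± 0.13 (limma adjusted p = 0.981) that changed to -0.084 without that array. Rplp2 read 36179.8 and 42987 in wildtype cells, against 45732 and 40828 in deficient cells. Again wildtype replicate 1 was lowest, and the difference of 0.13 ± 0.11 had a 95% interval of -0.11 to 0.38 (limma adjusted p = 0.973). It was 0.0075 without wildtype replicate 1 and 0.26 without wildtype replicate 2.

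Of the 19 tested genes of the small subunit, which binds the messenger RNA and reads its codons, 14 were higher and 5 lower, with a median of 0.030. Rps18 held the brightest probe set of each of the 4 arrays, at 45405 and 53887 in wildtype cells, against 52337 and 48186 in deficient cells. The deficient arrays lay between the wildtype ones, and the difference was 0.022 ± 0.10, or 0.863 to 1.19-fold by its 95% interval. Rps6, the protein phosphorylated by S6 kinases downstream of mTOR, read 3791 and 3963 in wildtype cells, against 3998 and 3711 in deficient cells. Its difference of -0.0091 ± 0.094 was smaller than the gap between the arrays of either genotype. Brighter probe sets are annotated with both Rps6 and Rps6-ps4 and lie outside the rule. Those with a mean signal of at least 20000 differed by 0.11, -0.051, 0.019 and 0.064. Those with mean signals of 9741 and 6366 differed by -0.28 and -0.15. Rps3, which lines the entry of the messenger RNA channel, read 27529 and 34372 against 33757 and 31839.6 and differed by 0.092 ± 0.11, with wildtype replicate 1 lowest. Its direction rests on that array and on the choice of probe sets, being -0.068 without the array and -0.070 when its probe sets were averaged. That average gives equal weight to a dim probe set (mean signal 3230, difference -0.19) and to another below the filter (mean signal 4.11).

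Among small subunit genes known from inherited or acquired anaemia, differences were also within the spread of replicates. Rps19, often mutated in Diamond-Blackfan anaemia, read 29575 and 34363 against 32298 and 32611 (wildtype against deficient) and differed by 0.026 ± 0.095. Rps14, whose loss of a copy marks a myelodysplastic syndrome, read 32331 and 37514 against 37055 and 34108 and differed by 0.030 ± 0.099. Rps26, which sits at the exit of the messenger RNA channel, was 19629.6 and 22648 against 23276 and 22324, a difference of 0.11 ± 0.095 (limma adjusted p = 0.973). In each of these genes the genotypes overlapped and wildtype replicate 1 was the lowest array. Rps15, with a tail that reaches the decoding site, differed by -0.00017 on the probe set used, at 30072 and 34941 against 32929 and 31901. Its other probe set read 17064 and 23333 against 23621 and 25204, a difference of 0.29. Rps20 (-0.050), Rps4x (-0.036), the X-linked form of the gene, and Rps7 (-0.0093) were the small subunit genes furthest below 0. In Rps20 the arrays did not overlap, at 40958 and 40311 against 39468 and 39034, and the 95% interval of the difference was -0.23 to 0.13. On another probe set of Rps20, with a mean signal of 38730, they overlapped and the difference was -0.035.

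The small subunit genes furthest above 0 were Rps27 and Rps25, and both were read from dim probe sets. Rps27, a zinc-finger protein, read 411 and 460.1 in wildtype cells, against 519 and 679 in deficient cells. Both deficient arrays were above both wildtype arrays, a difference of 0.44 ± 0.16 that did not pass (limma adjusted p = 0.86) and was 0.25 without deficient replicate 2. A further probe set, annotated with both Rps27 and Rps27rt and therefore outside the rule, read 28136 and 33362 against 32995 and 32759 and differed by 0.10. Rps25, used by some viral RNAs to start translation internally, read 3226 and 2520.1 in wildtype cells, against 3335 and 3304 in deficient cells, where wildtype replicate 2 was low and the difference was 0.22 ± 0.13 (limma adjusted p = 0.964). Without that array it was 0.041, and without wildtype replicate 1 it was 0.40. The probe set shared with the symbols Gm6988 and Gm4963 read 23845 and 30255 against 29769 and 27679.5 and differed by 0.096. For both genes the brighter, shared probe set gave the smaller difference, and which of them tracks the gene was not tested.

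Of the 20 genes of the large subunit, which joins amino acids, 16 were higher and 4 lower, with a median of 0.046. Rpl39, a small peptide that lines the exit tunnel of the nascent chain, had the smallest p of all 46 genes. It read 419 and 471 in wildtype cells, against 285 and 298 in deficient cells, so that both deficient arrays lay below both wildtype arrays. The means were 445 (37.4) and 292 (9.09), and the difference of -0.58 ± 0.15 had a 95% interval of -0.93 to -0.23 but did not pass (limma adjusted p = 0.462). Over the alternatives tried its adjusted p ran from 0.267 to 0.821. The probe set shared with the symbol Gm32211 read 31955 and 41277 against 39311 and 32746, a difference of -0.018 in which the deficient arrays lay between the wildtype ones.

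The large subunit genes Rpl12, Rpl37 and Rpl35 also had no overlap between genotypes, the first pair on dimmer probe sets. Rpl12, at the base of the stalk, read 1026 and 1009.5 against 911 and 925 (wildtype against deficient), a difference of -0.15 ± 0.11. Probe sets annotated with its symbol and others differed by 0.058 and 0.13, in the other direction. Rpl37, another zinc-finger protein, read 6821 and 6646 against 6316 and 6109.8, a difference of -0.12 ± 0.086, and the brightest probe sets it shares with Rpl37rt differed by -0.062 and 0.098. Rpl35 did not overlap either, at 39443 and 40364 against 41584 and 40679.5, but its difference was 0.044 ± 0.080. On its other probe sets with a mean signal of at least 20000 the genotypes overlapped, with differences from -0.032 to 0.026.

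The remaining large subunit genes lay close to 0. Rpl11, which with the 5S RNA can bind Mdm2 and so stabilise p53, read 26531 and 29466 against 29859.6 and 29227 and differed by 0.079 ± 0.088, with wildtype replicate 1 below the other arrays. Rpl13a, a part of the interferon-gamma-activated GAIT complex of myeloid cells, read 43329 and 52787 against 47842 and 47393 and differed by -0.0063 ± 0.10. Its 4 probe sets gave differences from -0.068 to 0.12. Rpl38, needed for the translation of Hox messages in the embryo, read 40045 and 48857 against 47008 and 44521 and differed by 0.049 ± 0.11. Rpl10a, the protein of the L1 stalk, and Rpl6 differed by 0.0030 ± 0.087 and 0.0091 ± 0.10. In the case of Rpl38 and Rpl6 wildtype replicate 1 was lowest and wildtype replicate 2 highest, so that the deficient arrays fell between them.

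Paralogues were compared with their standard genes by their differences only, as signals of different probe sets are on no common scale. Rpl22, whose loss blocks the development of alpha-beta T cells, read 33569 and 40338 against 39192 and 36412 and differed by 0.038 ± 0.10, and its paralogue Rpl22l1 read 22747 and 32591 against 29548 and 30816 and differed by 0.15 ± 0.15. Wildtype replicate 1 was low for Rpl22l1, 0.52 below wildtype replicate 2. Without wildtype replicate 2, which leaves 1 wildtype array and takes the spread from the deficient pair, Rpl22l1 was 0.41 and passed (limma adjusted p = 0.0342), whereas without wildtype replicate 1 it was -0.11. Rps27l, the p53-induced paralogue of Rps27, read 23373 and 21839 against 24500.2 and 23836 and differed by 0.097 ± 0.084. Its arrays did not overlap on the probe set used. On its other probe sets, with mean signals of 22993 and 19409, the genotypes overlapped and the differences were 0.020 and 0.015. Unlike most of the bright genes Rps27l was higher in wildtype replicate 1 than in wildtype replicate 2.

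Rpl39l, the testis form of Rpl39, had the widest spread of the 46 genes, at 370.3 and 297 in wildtype cells, against 195 and 803 in deficient cells. The deficient replicates lay on either side of the wildtype ones, and the difference of 0.26 ± 0.50 had an interval of -0.88 to 1.40. Without deficient replicate 1 it was 1.24 and passed (limma adjusted p = 0.0287), as a test of the 1 high array against the wildtype pair, and without deficient replicate 2 it was -0.72. Rps4l, the paralogue of Rps4x, was near background at 186 and 76.5 against 124 and 143 and differed by 0.13 ± 0.36. Rpl7l1 read 3261 and 3256 against 3394 and 3006 and differed by -0.029 ± 0.10, beside 0.059 ± 0.11 for Rpl7. Rpl3l, a muscle form, was between 1.55 and 28.5 on all 4 arrays and was not tested. Rps16 is a core protein of the small subunit, but its only single-symbol probe set was between 0.876 and 1.19, so it gave no usable value. The probe sets it shares with Rps16-ps2 and a further locus differed by 0.052 and 0.14.

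In most of these genes the wildtype arrays differed from each other more than the genotypes did. Of the 46 genes, 37 (80.4%) were higher in wildtype replicate 2 than in wildtype replicate 1, by a median of 0.21, beside 50.8% of all tested genes and a median of 0.0054. In 38 of 46 genes (82.6%) the gap between the wildtype arrays was larger than the difference between genotypes. This held for 60.7% of all tested genes and for 77.8% of 90 other genes with a mean signal of at least 20000. Wildtype replicate 1 was the lowest of the 4 arrays in 35 genes (76.1%, beside 24.9% of all tested genes). Wildtype replicate 2 was the highest in 26 (56.5%, beside 27.3%). The deficient arrays were closer, with replicate 2 below replicate 1 in 38 genes (82.6%, median gap -0.060). That order was seen in 51.2% of all tested genes and in 85.6% of the 90 other bright genes. Set against each gene's mean over the arrays, the medians stood at -0.12 and 0.078 for wildtype, and at 0.064 and -0.018 for deficient, replicates 1 and 2. These values describe 4 arrays and carry no test.

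The shared position on the arrays was seen among the bright genes. The 35 genes with a mean signal of at least 20000 shared their lowest array: wildtype replicate 1 was lowest in 33 of 35, and the median gap between the wildtype arrays was 0.22. Their differences between genotypes lay between -0.050 (Rps20) and 0.15 (Rpl22l1). All 35 intervals lay inside -0.5 to 0.5, as did 88 of 90 for other genes as bright. The 11 tested genes under 20000 had wildtype replicate 1 lowest in 2 and a median wildtype gap of -0.022. Their differences ran from -0.58 to 0.44, and 5 of the 8 genes without overlap were among them. The 20000 mark was chosen after the values were seen. Other genes as bright shared the low array but not the high one. Of 90 that are not ribosomal protein genes by the symbol rule, 79 were higher in wildtype replicate 2, by a median of 0.14, and wildtype replicate 1 was lowest in 71. Deficient replicate 1 was the highest array in 52 of these 90 and wildtype replicate 2 in 31, against 10 and 24 of the 35 ribosomal protein genes, and this difference was not tested. Their median difference between genotypes was 0.050. With quantile normalization, which gives all arrays the same distribution, the ribosomal gap between wildtype arrays was 0.0011, with 23 of 46 genes higher in replicate 2. Ribosomal probe sets are many at the top of that distribution, 67 with a single symbol and 76 with several at 20000 or more. The step itself takes out most of a gap shared there, so this value is no separate finding.

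**Figure D3:**
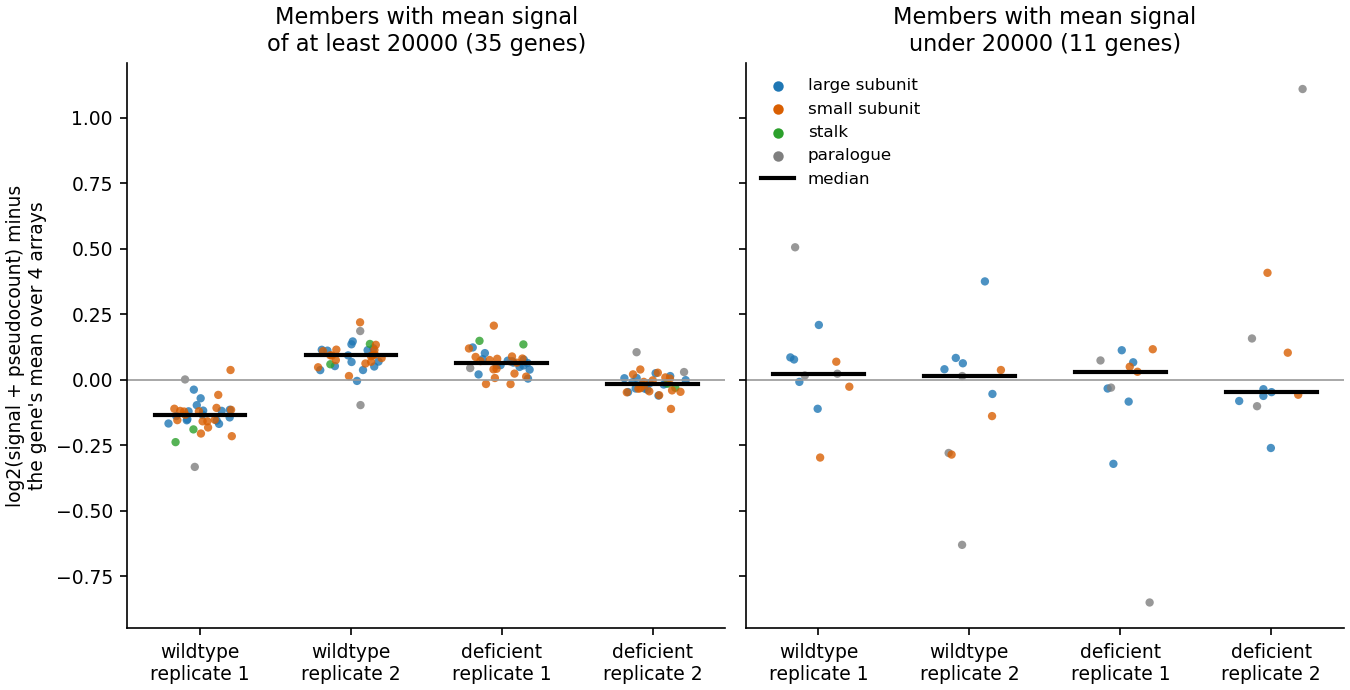
Each point is a tested ribosomal protein gene, placed by array (x axis) at its log2(signal + pseudocount) minus its own mean over the 4 arrays (y axis), with the 35 genes of mean signal at least 20000 on the left and the 11 others on the right; bars are medians. On the left the median is -0.13 in wildtype replicate 1 and 0.092 in wildtype replicate 2, with the deficient arrays at 0.065 and -0.016, while the points on the right scatter widely.

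Different probe sets of a gene gave a check on single values. The 48 genes have 103 probe sets with a single symbol, of which 98 were bright enough to be tested, and none of the 98 passed when every probe set was tested on its own (smallest limma adjusted p = 0.492). Of the 52 tested probe sets that were not the one used, 36 had the same sign as the one used. The 67 probe sets with a mean signal of at least 20000 had differences from -0.17 to 0.29, with a median of 0.039. The lowest values among the other probe sets were on dim ones: a probe set of Rps18 at 48.8 and 91.7 against 32.3 and 20.9 differed by -1.01. The 16 probe sets used that end in _x_at or _s_at are known to match several transcripts, and ribosomal protein genes have many near-identical processed copies in the genome, so signals of such copies cannot be separated. Without them the median difference was 0.055 over 41 tested genes.

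A further 110 probe sets carry several symbols, at least 1 of them a ribosomal protein gene, and are outside the rule. They are the route by which 31 ribosomal symbols without a probe set of their own are represented, among them Rplp1 and Rpl5, the partner of Rpl11. Of these, 107 passed the filter, with a median difference between genotypes of 0.052. The 76 with a mean signal of at least 20000 lay between -0.065 and 0.20, and 75 of 76 were higher in wildtype replicate 2 than in wildtype replicate 1. Their signal cannot be assigned to 1 symbol, so the values given for them are those of the probe set and not of a gene.

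**Figure D4:**
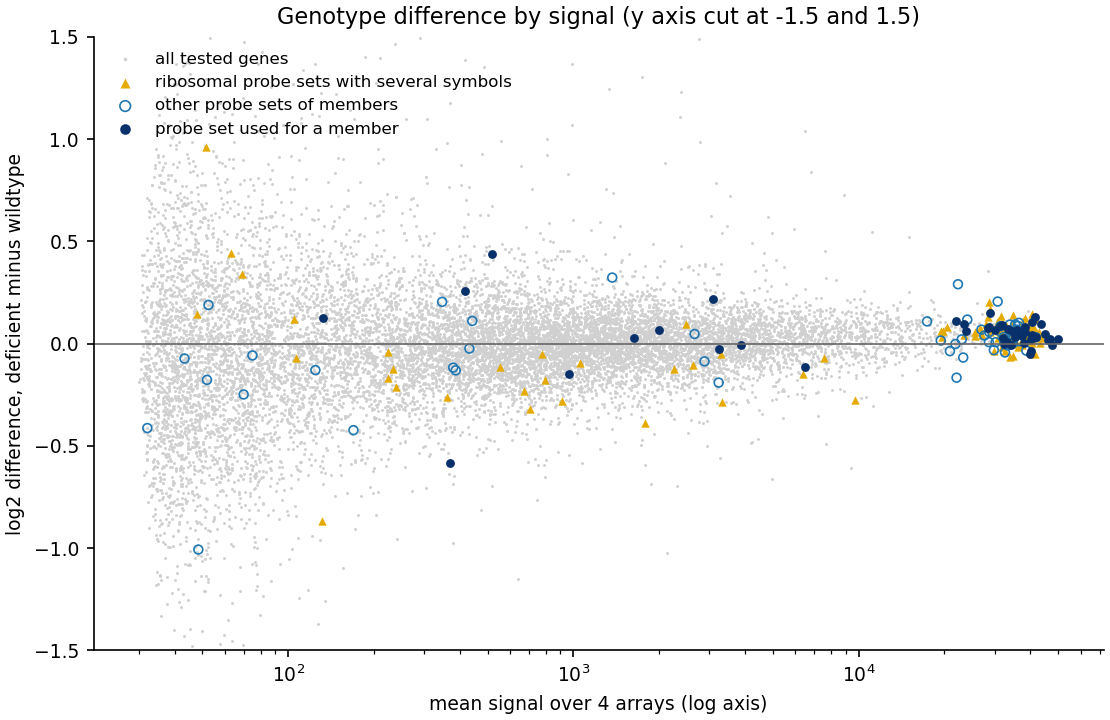
Log2 difference between genotypes (y axis, deficient minus wildtype) against mean signal over 4 arrays (x axis, log scale), for tested genes (grey), the probe sets used for ribosomal protein genes (filled circles), their other tested probe sets (open circles) and ribosomal probe sets with several symbols (triangles); genes beyond the y axis range are not drawn. Ribosomal probe sets above 20000 lie between -0.17 and 0.29, and the dimmer ones spread more widely.

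The other genes of the pathway showed no call either, and 0 members of any of the lists below passed limma's adjusted p of 0.05 (background 0.179%; unadjusted p under 0.05 in 1 initiation factor, 1 biogenesis factor and 2 mitochondrial ribosomal protein genes). Rpsa and Fau encode small subunit proteins whose symbols the rule misses. Fau read 27058 and 31891 against 33582 and 30183 and differed by 0.12, and Rpsa read 36424 and 42871 against 42442 and 39094 and differed by 0.044, both with wildtype replicate 1 lowest. Without that array Fau and Rpsa were at -0.0024 and -0.074. Elongation factors and other genes whose messages carry a TOP motif (21 tested, 15 higher and 6 lower, median 0.029) included Eif3m, Eif3k and Vim, with differences of 0.15, 0.11 and 0.097. Like the ribosomal protein genes, 18 of these 21 were higher in wildtype replicate 2 than in wildtype replicate 1, by a median of 0.16. The same held for 16 of 22 translation initiation factors (median gap 0.078) and for 79 of 90 other genes with a mean signal of at least 20000.

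Translation initiation factors (22 tested, 16 higher and 6 lower, median 0.019) had their smallest p in Eif5b, which joins the subunits. It read 1428 and 1790.3 against 1282 and 1279.6, a difference of -0.32 with both deficient arrays lower (limma adjusted p = 0.917). Eif2b1, a part of the exchange factor for eIF2, and Eif6, which keeps free large subunits apart, differed by 0.21 and 0.19. Ribosome biogenesis factors (53 tested, 33 higher and 20 lower, median 0.026) were led by Rrs1, which brings the 5S RNA particle into the large subunit, at 6167 and 5049 against 4869 and 4377. Its difference was -0.27 (limma adjusted p = 0.936), and Pno1 and the helicase Ddx21 differed by 0.20 and -0.22. On the arrays this list ran another way than the ribosomal protein genes, with only 15 of 53 genes higher in wildtype replicate 2 (median -0.075); that difference between lists was not tested.

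RNA polymerase I, which makes the ribosomal RNA, and its factors (18 tested, 12 higher and 6 lower, median 0.023) had the smallest p in Polr2f (0.16), a subunit shared by the nuclear polymerases, Polr1a (0.18), the largest subunit, and Taf1b (-0.20). Genes that control ribosomal protein synthesis, among them mTOR and its partners (22 tested, 7 higher and 15 lower, median -0.055), had Tsc1 (-0.33), an inhibitor of mTOR, Gabpa (-0.20), the ETS factor named above, and Tbp (-0.19). Tsc1 read 464 and 443 against 328 and 391, with both deficient arrays lower (limma adjusted p = 0.953). Proteins of the mitochondrial ribosome, a separate particle encoded by other genes (76 tested, 59 higher and 17 lower, median 0.060), had Mrps16, Mrps14 and Mrps21, proteins of its small subunit, each at a difference of 0.22. The genotypes had separate ranges in 21 of these 76 genes in the higher direction and in 2 in the lower, beside 15.9% and 17.7% of all tested genes. Wildtype replicate 2, not replicate 1, was the lowest array in 38 of the 76.

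**Figure D5:**
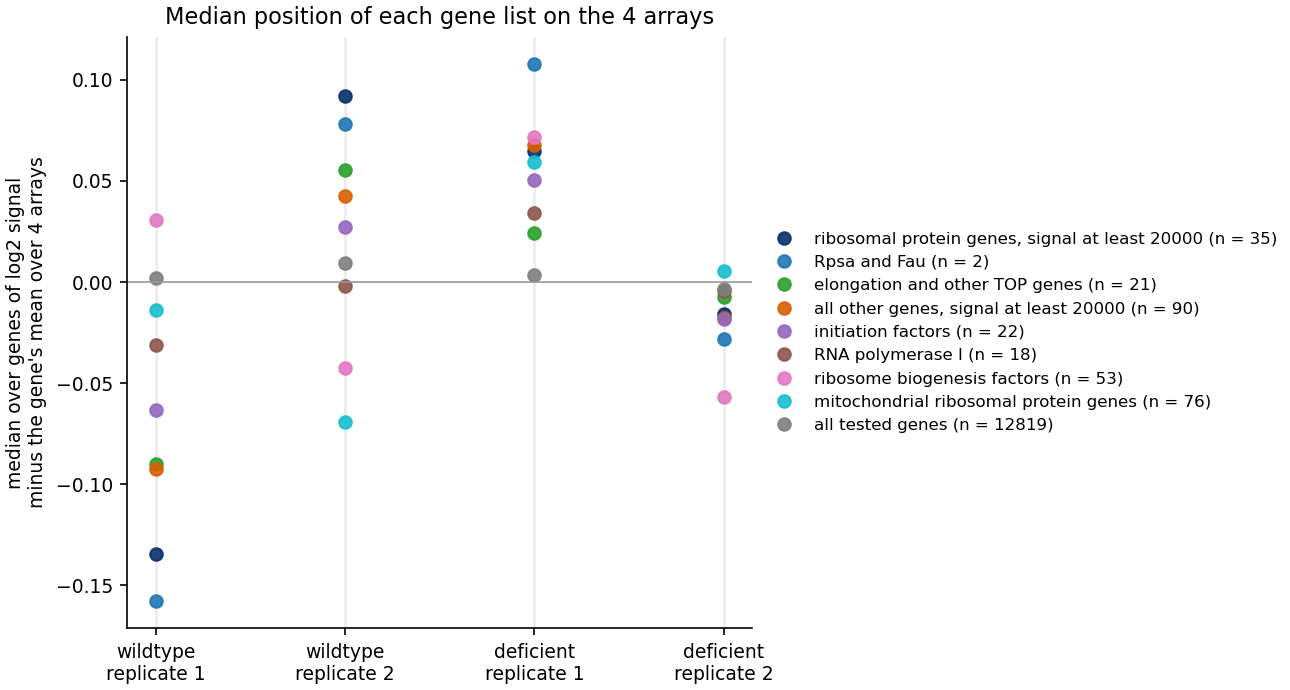
Median over the tested genes of each list of log2 signal minus the gene's mean over the 4 arrays (y axis), by array (x axis). In wildtype replicate 1 the bright ribosomal protein genes stand at -0.13, other bright genes at -0.093 and all tested genes at 0.0022; in wildtype replicate 2 the biogenesis and mitochondrial lists lie below 0 at -0.043 and -0.069.

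Median signals were 57.7 and 50.2 in the wildtype and 51.4 and 48.6 in the deficient arrays, and the 48 probe sets used held 3.15% and 3.54% of the summed signal in the former and 3.47% and 3.34% in the latter. All 12 T cell markers with a probe set were above the filter, with 7 higher and 5 lower in the deficient arrays and summed signals of 70249 and 80241 against 72935 and 78313. This sum was lowest in wildtype replicate 1. Gene by gene, wildtype replicate 2 was above wildtype replicate 1 in 11 of the 12 markers (median gap 0.18), as in most ribosomal protein genes. Wildtype replicate 1 was the lowest array in 5 of 12 markers and deficient replicate 1 in 5. Deficient replicate 2 was above deficient replicate 1 in 10 of the 12 markers, whereas it was below it in 38 of 46 ribosomal protein genes. B cell markers differed between genotypes, with 14 of 14 tested genes higher, none overlapping and 4 past limma's adjusted p of 0.05, beside 15.9% and 0.172% of all tested genes in that direction. Their summed signal was 6288 and 9375 against 18229 and 18903, while Pax5 and Fcrla were below the filter. Summed signals ran from 12718 to 14298 (wildtype) and 15295 to 16707 (deficient) for dendritic cell markers, of which 5 tested genes were higher (1 called) and 3 lower, with Flt3, Itgax, Siglech and Xcr1 below the filter. They ran from 5429 to 5756 and 7322 to 9789.6 for NK cell markers, where 6 of 6 tested genes were higher without overlap and 0 were called (smallest limma adjusted p = 0.24), with Klra8 and Ncr1 below the filter. For macrophage markers they lay between 555 and 641, for CD8 between 723 and 977, and for erythroid markers between 152 and 213 over the 4 arrays. The ratio of 3' to 5' control signal, a sign of RNA quality, was 2.4 and 2.74 against 1.92 and 2.23 for the transferrin receptor, 1.17 and 1.3 against 1.14 and 1.25 for beta-actin and 0.778 and 0.808 against 0.746 and 0.778 for Gapdh. In each genotype replicate 1 had the lower ratio. The markers are transcripts and do not show which cells held them. The part of other cell types and of RNA quality in the ribosomal values was not tested.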

How the data were processed

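The deposited table gives each probe set an intensity on each array. The authors made these intensities with MAS5, and the Transcriptome Analysis Console is also named, per the submitters' processing notes; RNA input was 100 ng, per the labels' protocols. In the file each array has a trimmed mean of 500.004 after leaving out 2% at each end. Scanner files and saturation were not analysed here.

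Of 45101 probe sets, 64 controls were set aside, and of the rest 34945 had 1 symbol in the platform annotation, 932 several and 9160 none. Gene IDs of 34741 were in the GRCm38.p6 RefSeq table, with 0 differing symbols. The probe set with the highest mean signal stood for each of 18193 genes. Values were log2(signal + 14.7), the 25th percentile of all signals being added, and the 12819 genes whose mean log2 value reached the 40th percentile of all probe sets (signal 29.9) were tested with limma 3.58.1 in R 4.3.3 (lmFit, eBayes with an intensity trend, two-sided, Benjamini-Hochberg over all tested genes, threshold 0.05, 2 residual degrees of freedom). The procedure was tested on simulated data. Plots used Python 3.11.15 and matplotlib 3.10.9.

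Genes named were the 8 tested ribosomal protein genes furthest above 0 and the 8 furthest below, the 5 nearest to 0, a fixed list of well-known members and paralogues, any untested member, and the 3 of each pathway list with the smallest p. Rps18 and Rpl35 fall outside this rule and were chosen after seeing their values. The members and lists were chosen with earlier results of these data known. Alternatives were other pseudocounts, filters, normalizations, probe set choices and thresholds, no intensity trend, the replicate number as a block and leaving out each array. Protein sequences were not used here, so paralogues were not compared by identity. Intervals are limma's 95% intervals on 8.57 degrees of freedom. Of these, 2 come from the gene's own arrays and the rest are borrowed from the spread of the other genes. With 2 arrays a genotype the number of arrays limits their precision.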

Additional observations from a re-analysis of the deposited data

How the results depend on the processing

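None of the 46 ribosomal protein genes passed limma's adjusted p of 0.05 under any alternative that kept all 4 arrays. Leaving out 1 array gave 0 to 1 of them: Rpl22l1 without wildtype replicate 2 and Rpl39l without deficient replicate 1, where the lone array is assumed to vary like the other genotype. Over all genes the count of calls was 23 as reported, 2 with no filter, 50 with median centring, 14 with the mean of all probe sets, 0 without the intensity trend, 40 at an adjusted p of 0.10, and 19 to 100 without 1 array. With the replicate number as a block it was 14, and 0 ribosomal protein genes. The numbers were not taken as pairs, since the labels do not say that same-numbered arrays belong together. Same-numbered arrays deviated together with a correlation of 0.0535 across 12819 genes. With 2 arrays a genotype this value cannot show whether they were handled together. The median difference of the ribosomal protein genes ran from -0.067 to 0.14 without 1 array, with 10 to 40 of 46 genes higher. Their median gap between wildtype arrays was 0.0011 after quantile normalization (23 of 46 higher in replicate 2) and 0.36 after median centring. Median centring moved the list medians to 0.11 (polymerase I), 0.028 (control genes), 0.14 (mitochondrial ribosomal proteins), 0.11 (biogenesis factors), 0.11 (elongation and TOP genes) and 0.10 (initiation factors). The polymerase I median was -0.023 with the mean of all probe sets and -0.0088 to 0.058 without 1 array, and the mitochondrial one 0.038 to 0.099, with 0 to 1 mitochondrial genes called. Of 445 values of named ribosomal protein genes under alternatives, 42 were on the other side of 0, and 9 of 271 for the other named genes. Quantile normalization put Rpl10a at -0.053, Rpl22 at -0.013, Rpl6 at -0.039, Rps14 at -0.0086, Rps19 at -0.030 and Rpsa at -0.0095. Median centring put Rpl13a at 0.077, Rpl7l1 at 0.054, Rps15 at 0.083, Rps20 at 0.033, Rps4x at 0.047, Rps6 at 0.074 and Rps7 at 0.074. The mean of all probe sets put Polr1a at -0.042, Polr2f at -0.020, Rpl13a at 0.0084, Rps15 at 0.14, Rps3 at -0.070, Rpsa at -0.12 and Tbp at 0.21. Leaving out _x_at and _s_at probe sets put Rpl13a at 0.12. Ranges without 1 array were -0.0024 to 0.23 for Fau, -0.067 to 0.073 for Rpl10a, -0.15 to 0.14 for Rpl13a, -0.095 to 0.17 for Rpl22, -0.11 to 0.41 for Rpl22l1, -0.095 to 0.19 for Rpl38, -0.72 to 1.24 for Rpl39l, -0.11 to 0.13 for Rpl6, -0.081 to 0.20 for Rpl7, -0.12 to 0.058 for Rpl7l1, -0.084 to 0.29 for Rplp0, -0.077 to 0.14 for Rps14, -0.11 to 0.11 for Rps15, -0.082 to 0.13 for Rps19, -0.068 to 0.25 for Rps3, -0.44 to 0.69 for Rps4l, -0.24 to 0.17 for Rps4x, -0.062 to 0.044 for Rps6, -0.072 to 0.054 for Rps7, -0.074 to 0.16 for Rpsa and -0.070 to 0.26 for Vim. The cause was not tested in any of these cases. Without 1 array, differences that kept their sign still ran from 0.0075 to 0.26 for Rplp2, 0.041 to 0.40 for Rps25, 0.0093 to 0.22 for Rps26, 0.25 to 0.63 for Rps27, 0.048 to 0.15 for Rps27l and 0.0037 to 0.16 for Rpl11. With 2 arrays a genotype the number of arrays limits the precision.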

Other observations

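Ribosomal probe sets with several symbols give values for proteins that the symbol rule misses, as values of the probe set and not of a gene. The probe set annotated with both Rplp1, the third stalk protein, and Gm13777 read 28359.8 and 33817 against 33290.3 and 31001 (wildtype against deficient), a difference of 0.053. The brightest probe set annotated with both Rpl5, the partner of Rpl11 in the 5S RNA particle, and Rpl5-ps2 read 36755 and 44372 against 43968 and 38185, a difference of 0.021. In both, wildtype replicate 1 was the lowest array and the genotypes overlapped. A dim probe set with the same pair of Rpl5 symbols read 768 and 789.8 against 739 and 523, a difference of -0.32 with both deficient arrays lower. Over the 107 such probe sets above the filter, differences ran from -0.87 to 0.96, and 85 of 107 were higher in wildtype replicate 2 than in wildtype replicate 1.

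The array also carries control probe sets for the 18S ribosomal RNA, the RNA of the small subunit. The 3' probe set read 9258 and 9527 in the wildtype and 10452 and 10056 in the deficient arrays. The 5' probe set read 21723 and 24518 in the wildtype and 25341 and 24287 in the deficient arrays. The middle probe set read 13871 and 14810.0 in the wildtype and 14844 and 14737 in the deficient arrays. On each of these probe sets wildtype replicate 1 was the lowest array, as for most ribosomal protein genes. It was also lowest in 71 of 90 other genes with a mean signal of at least 20000. Deficient replicate 1 was the highest on each, as in 52 of those 90 genes. Wildtype replicate 2 was the highest in 26 of 46 ribosomal protein genes. On the 3' probe set both deficient arrays were above both wildtype arrays, as in 15.9% of all tested genes. How these signals relate to the amount of ribosomal RNA was not tested.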
